A study of Mus musculus with 10 samples.

Results

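The transcription factor NRF2 (*Nfe2l2*), its inhibitor KEAP1 (*Keap1*) and 8 classic NRF2 target genes were examined in the aorta of young and old mice. The members were chosen by gene symbol from knowledge of the pathway, with earlier results of these data known. All 10 symbols were found among the 55453 gene symbols of the count table. The table holds RNA-seq read counts from whole aortae of 10 male C57BL/6 mice, of which 5 were young (14.5 weeks) and 5 were old (92.5 weeks). The labels name no transgene and no drug in either group, and all mice were killed on the same occasion. Each library came from the aorta of 1 mouse, perfused with saline and freed of the fat around the vessel. The comparison asks which genes differ in expression between young and old arteries.

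NRF2 is a transcription factor that is held at a low level in unstressed cells, because KEAP1 marks it for degradation by the proteasome. When oxidants or electrophiles modify KEAP1, NRF2 escapes, enters the nucleus, pairs with small MAF proteins and binds antioxidant response elements in front of its target genes. Those targets make and recycle glutathione and thioredoxin, reduce quinones, break down heme and supply NADPH. In the vessel wall this response is known for limiting oxidative injury to endothelial and smooth muscle cells. Control of NRF2 acts largely on the protein, which RNA-seq does not measure, and its activity is usually read from the transcripts of its targets.

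To show the element itself, the core TGACNNNGC was searched on both strands of the RefSeq promoter windows on GRCm38.p6, which run from 250 bases before to 50 bases after each start. Of the members, 7 had a window, and *Hmox1*, *Gclc* and *Gsr* had no entry. The core was found in a window of 4 of the 7 members (*Nfe2l2*, *Gclm*, *Txnrd1* and *Srxn1*), whereas 14% of all genes with a window hold it. In 3 of them it lies before the start, as it does in 11.5% of all genes with a window. These 3 sites are printed below on the strand of the gene, 5′ to 3′, with the core or its reverse complement in capitals. They are shown because they are the letters that NRF2 and its MAF partners are known to recognize.
*Nfe2l2*, chr2:75704880-75704913, minus strand: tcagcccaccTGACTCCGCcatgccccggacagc
*Gclm*, chr3:122245408-122245446, plus strand: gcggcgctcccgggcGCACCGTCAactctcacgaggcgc
*Txnrd1*, chr10:82859099-82859137, plus strand: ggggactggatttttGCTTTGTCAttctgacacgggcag
The last base of the core lies 232 bases before the start in *Nfe2l2*, 126 bases before it in *Gclm* and 84 bases before it in *Txnrd1*. *Txnrd1* had 3 windows, and the start of this match lies inside the gene, which begins at 82833951. These matches are a description of the letters and were not tested for binding.

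Of the 10 members, 9 had enough reads to be tested, and *Slc7a11* did not. The contrast of old with young was tested by the quasi-likelihood method of edgeR over all 14614 genes with enough reads, and a gene was called at a Benjamini-Hochberg adjusted p below 0.05. *Hmox1*, which encodes the heme-degrading enzyme heme oxygenase 1, was higher in old aortae, with 1.30 times the young level. No other member was called in either direction. The number of members called was therefore 1 of 9 higher and 0 of 9 lower, whereas 6.48% of all tested genes were called higher and 4.99% lower. At an unadjusted p below 0.05, edgeR likewise gave 1 member higher and 0 lower, whereas 14.1% of all tested genes were higher and 12.6% lower at that threshold. DESeq2 and limma-voom each called 1 member higher and 0 lower. In DESeq2, 8.37% of all genes were higher and 7.40% lower, and in limma-voom 6.53% were higher and 5.07% lower.

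The changes of the members were small and precisely measured. The median log2 fold change (old over young) of the 9 members was 0.07, against 0.00 over all tested genes, with 7 values above 0 and 2 below. For 8 of the 9, the absolute log2 fold change was below 0.14, the median over all tested genes. Their standard errors (SE) lay between 0.05 and 0.10. In the 8 members that were not called, the 95% intervals of the fold change together covered 0.850 to 1.19, so that a change beyond those bounds lies outside each interval.

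**Figure D1:**
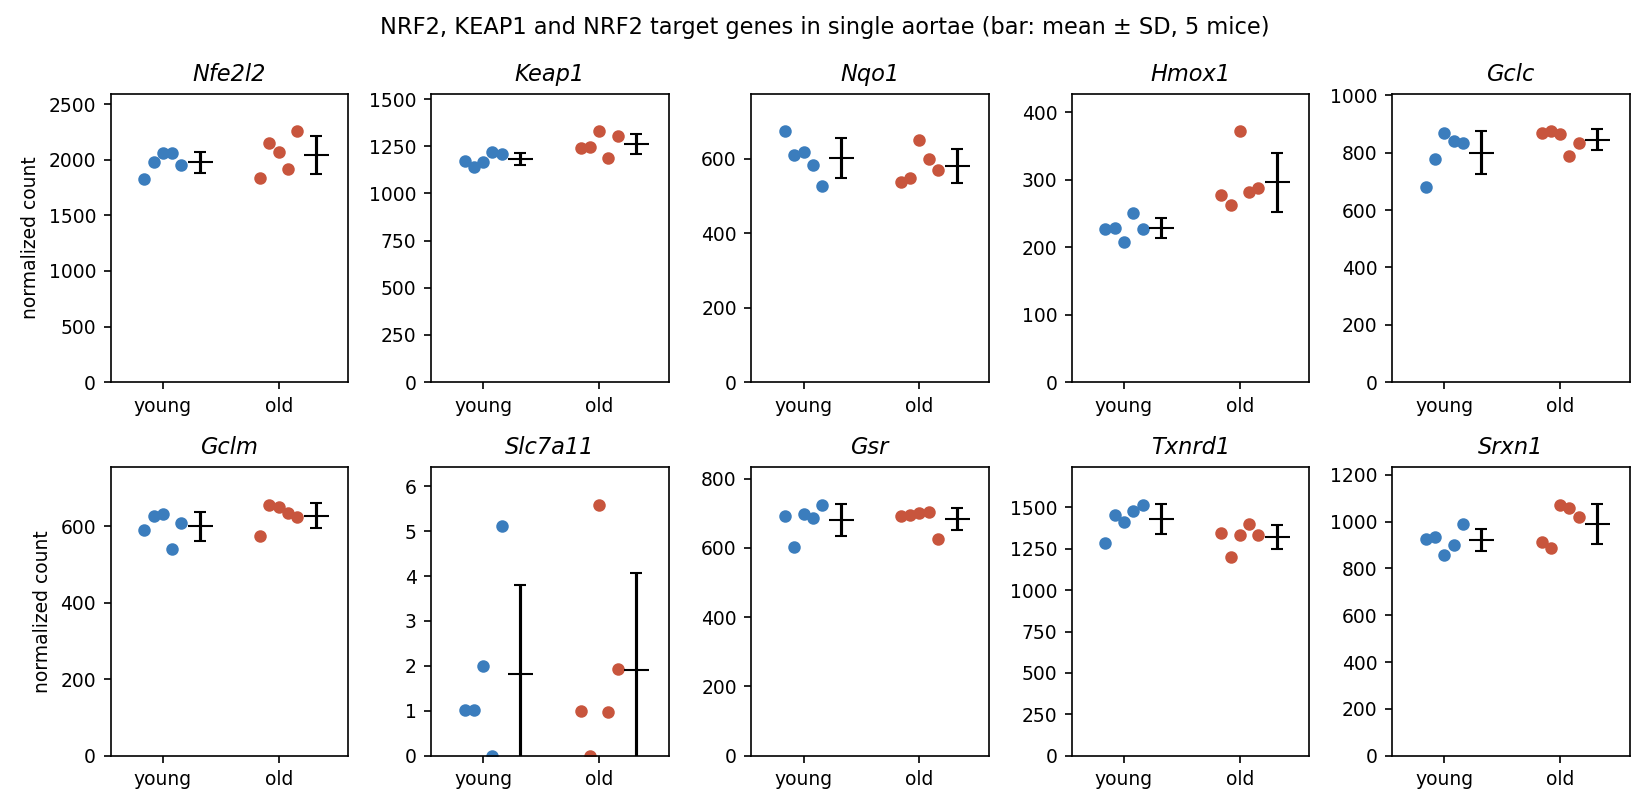
Normalized counts (linear axis from 0) of the 10 members in single young (blue) and old (red) aortae, with the bar giving the mean ± SD over 5 mice. The old points of *Hmox1*, at 262 to 372, lie above all young points, whereas the groups overlap in every other panel.

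The ranges of read depth overlapped. Total counts on genes ran from 20560415 to 22833794 in young and from 19640401 to 22886153 in old libraries (exact two-sided permutation test, p = 0.754). The labelled tissue was checked against 6 smooth muscle markers, which summed to 794522 to 941453 normalized counts in young mice and 733917 to 896083 in old mice. Markers of other cells were also present. The summed level of 8 macrophage markers in old aortae was 1.45 times the young level, and the groups did not overlap. For 6 endothelial markers the ratio was 0.592, for 5 adipocyte markers 0.520, for 6 lymphocyte markers 1.98 and for 5 striated muscle markers 0.497. For 6 fibroblast markers it was 0.847 and for 4 Schwann cell markers 1.10. In each of these sums the groups overlapped. Of the tested markers, edgeR called 0 of 6 endothelial, 0 of 5 adipocyte, 0 of 4 Schwann cell and 0 of 3 striated muscle genes. It called 1 of 6 fibroblast genes higher and 2 lower, and 1 of 4 lymphocyte and 1 of 6 smooth muscle genes higher. The shares over all tested genes were 6.48% higher and 4.99% lower. All endothelial log2 fold changes were below 0, from -1.08 to -0.04, and their smallest edgeR adjusted p was 0.0538. The adipocyte values ran from -1.10 to 0.06. The adipocyte sum of young replicate 1 was 8043, against 2109 to 4139 in the other young aortae. In whole tissue, more cells of a type and more RNA per cell cannot be told apart.

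*Nfe2l2* (chromosome 2, 75675513 to 75704641, minus strand of GRCm38), the gene of NRF2 itself, had 1828, 1982, 2062, 2062 and 1958 normalized counts in young replicates 1 to 5. A normalized count is the read count divided by the size factor of its library. In old replicates 1 to 5 it had 1834, 2150, 2074, 1914 and 2258. The highest values came from old mice, but the lowest old aorta lay next to the lowest young aorta, and the groups overlapped. This is a change of 0.06 on the log2 scale (SE 0.06, edgeR adjusted p = 0.635), with a 95% interval from -0.08 to 0.20.

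*Keap1* (chromosome 9, 21229730 to 21239361, minus strand) encodes the adaptor that brings NRF2 to the CUL3 ubiquitin ligase. Its normalized counts were 1174, 1139, 1164, 1217 and 1209 in young mice and 1240.2, 1248, 1330.0, 1189 and 1302 in old mice. Its coefficient of variation was 2.74% in young and 4.39% in old aortae, and 4 of the 5 old aortae lay above every young aorta. The mean was 1180.4 ± 32.3 in young mice and 1262 ± 55.4 in old mice (SD, n = 5). The log2 fold change of 0.10 (SE 0.05) did not pass the test (edgeR adjusted p = 0.206), and its interval ran from -0.00 to 0.21. Exons of a gene on the opposite strand (*Gm16754*) cover 10.9% of its exonic sequence, and the strand setting of the counting is not given in the sources used here.

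*Hmox1* (chromosome 8, 75093621 to 75100589, plus strand) breaks heme down to biliverdin, iron and carbon monoxide. Young aortae had 227, 229, 208, 250.1 and 227 normalized counts, and old aortae had 277, 262, 372, 282 and 288. All 5 old aortae lay above all 5 young aortae, a pattern shown by 5.37% of all tested genes in this direction and by 4.55% in the other. The mean rose from 228 ± 14.8 to 296 ± 43.6 (SD, n = 5), or 0.38 on the log2 scale (SE 0.10, edgeR adjusted p = 0.0287), with an interval from 0.16 to 0.60. Old replicate 3 stood apart from the other old aortae. Without it the log2 fold change was 0.28 and the edgeR adjusted p was 0.0502, so that the call was lost. The call was also lost when young replicate 2 (adjusted p = 0.0605), young replicate 3 (0.0636), young replicate 5 (0.0602) or old replicate 5 (0.0505) was left out of the edgeR fit.

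The summed markers of macrophages, a cell type that takes up red cells and degrades heme, were also higher in old aortae. All 8 macrophage markers had a positive log2 fold change, against 7418 of all 14614 tested genes. Of the 8, 3 (37.5%) were called higher by edgeR and 0 lower, against 6.48% and 4.99% of all tested genes. None of the 8 was at 0 in all libraries. Their sum lay between 9107 and 11512 normalized counts in young mice and between 11675 and 22429 in old mice. Old replicate 3 was the highest library in both measures. Among the other old aortae the order was not shared. Old replicate 2 had the lowest *Hmox1* (262) with the highest sum (14261), and old replicate 5 the highest *Hmox1* (288) with the lowest sum (11675). Per 1000 normalized counts of these markers, *Hmox1* had 19.7, 21.7, 20.4, 25.1 and 25.0 in young mice and 22.6, 18.3, 16.6, 20.1 and 24.7 in old mice. On that scale the groups overlapped, with 22.4 ± 2.54 in young mice and 20.5 ± 3.24 in old mice (SD, n = 5, exact two-sided permutation test, p = 0.325). The divisor was itself higher in every old aorta, so this ratio cannot decide the part of macrophages in the level of *Hmox1*. That part was not tested. Red blood cell markers summed to 718 to 3640.4 normalized counts in young mice and 809 to 4560.4 in old aortae, and their ratio of old over young was 0.998.

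**Figure D2:**
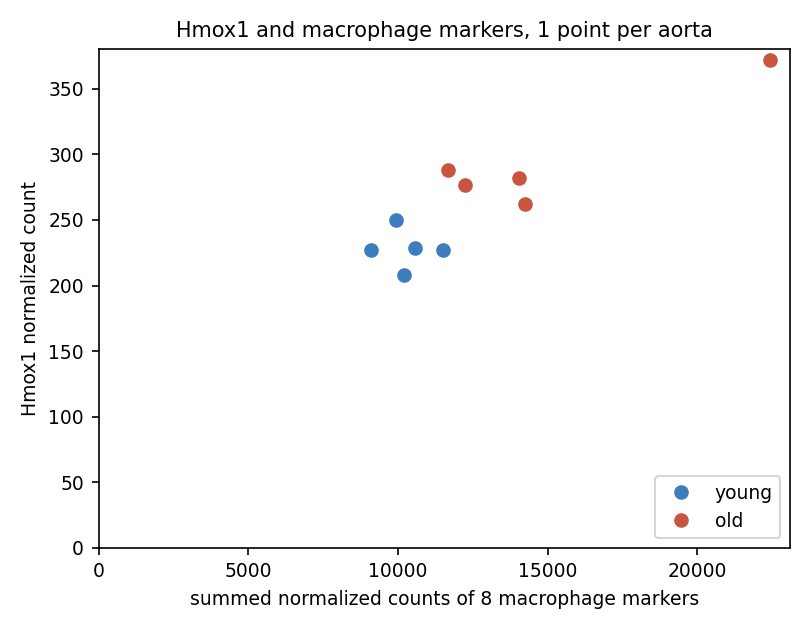
*Hmox1* normalized count against the summed normalized counts of 8 macrophage markers, with 1 point per aorta and both linear axes starting at 0. The 5 old aortae (red) lie above the young aortae (blue) on both axes, and old replicate 3 is the single point at 372 and 22429.

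*Nqo1* (chromosome 8, 107388225 to 107403206, minus strand), a quinone reductase and among the most used readouts of NRF2 activity, showed the opposite sign. Its normalized counts were 674, 611, 618, 582 and 528 in young mice and 537, 549, 651, 599.7 and 571 in old mice. All old values lay inside the young range. Old over young, this gave -0.04 on the log2 scale (SE 0.08, edgeR adjusted p = 0.776), with an interval from -0.21 to 0.12.

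The genes of glutathione synthesis were nearly level. *Gclc* (chromosome 9, 77754535 to 77794485, plus strand) and *Gclm* (chromosome 3, 122245557 to 122270732, plus strand) encode the catalytic and the modifier subunit of glutamate-cysteine ligase, the rate-limiting enzyme of the pathway. *Gclc* had 679, 777, 867, 841 and 833 normalized counts in young mice and 867, 875, 864, 788 and 835 in old mice. Young replicate 1 was the lowest library, and the other young aortae covered most of the old range. *Gclm* had 591, 627, 633, 539.8 and 609 in young mice and 574, 657, 649.6, 634 and 624 in old mice. The log2 fold changes were 0.09 for *Gclc* (SE 0.07, edgeR adjusted p = 0.463) and 0.07 for *Gclm* (SE 0.06, edgeR adjusted p = 0.514). Their intervals ran from -0.06 to 0.24 and from -0.07 to 0.21.

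*Slc7a11* (chromosome 3, 49892526 to 50443614, minus strand), the cystine importer that supplies cysteine for glutathione, had almost no reads in the aorta. The raw counts were 1, 1, 2, 0 and 5 in young and 1, 0, 6, 1 and 2 in old libraries. Summed over 5 libraries this gave 9 counts in young mice and 10 in old mice, of which most came from young replicate 5 and old replicate 3. The ratio of old over young was 1.12, with an exact 95% interval of 0.410 to 3.12 that covers counting error only. A change within that range was not detectable at this depth. Its partner in the transporter, *Slc3a2*, had 1676 ± 141 normalized counts in young mice and 1446 ± 162 in old mice (SD, n = 5), and edgeR did not call it (adjusted p = 0.128).

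The enzymes that reduce oxidized thiols were not called. *Gsr* (chromosome 8, 33652523 to 33698163, plus strand), glutathione reductase, had 693, 604, 698, 687 and 725 normalized counts in young mice and 692, 695, 702, 704 and 626 in old mice. In both groups 1 mouse lay lower than the rest. The estimate was 0.01 on the log2 scale (SE 0.06, edgeR adjusted p = 0.923), with an interval from -0.12 to 0.15. Its sign turned to -0.03 without young replicate 2.

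*Txnrd1* (chromosome 10, 82833951 to 82897712, plus strand), the cytosolic thioredoxin reductase, had 1284, 1456, 1409.8, 1479 and 1517 normalized counts in young aortae. In old aortae it had 1344, 1199, 1332, 1399.8 and 1334. Old replicate 2 was the lowest library, the other old aortae lay within the young range, and the 3 highest values came from young mice. On the log2 scale the difference was -0.10 (SE 0.06, edgeR adjusted p = 0.293), with an interval from -0.23 to 0.03.

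*Srxn1* (chromosome 2, 152105516 to 152111376, plus strand) encodes sulfiredoxin, which restores overoxidized peroxiredoxins. It had 926, 932, 859, 900.0 and 989.8 normalized counts in young mice and 912, 886, 1072, 1058 and 1021 in old mice. Old replicates 3, 4 and 5 lay above every young aorta, and old replicates 1 and 2 lay within the young range. On the log2 scale old exceeded young by 0.11 (SE 0.07, edgeR adjusted p = 0.314), with an interval from -0.03 to 0.26.

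**Figure D3:**
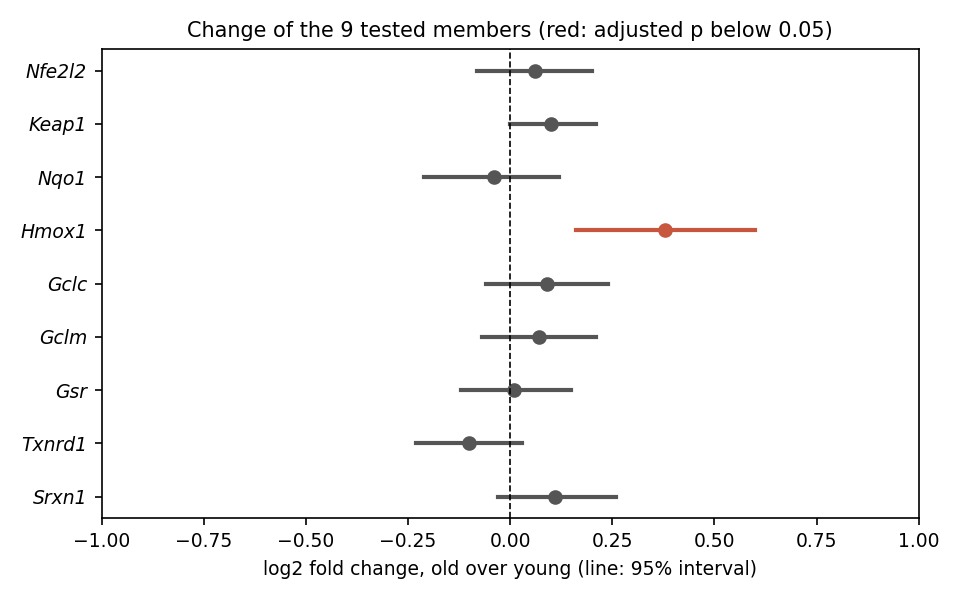
Log2 fold change (old over young, linear axis) of the 9 tested members with 95% intervals from edgeR. The interval of *Hmox1* (red), 0.16 to 0.60, lies to the right of 0, and the other 8 estimates sit between -0.10 and 0.11.

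Levels of different members were compared per length of exonic sequence, as CPM (the count scaled to the size of its library) per kilobase, averaged over all 10 libraries. *Nfe2l2* was the most abundant at 24.5 (22.2 to 27.4 over the libraries), followed by *Nqo1* at 17.6 and *Srxn1* at 15.7, whose ranges overlapped. *Keap1* (12), *Gsr* (11.5) and *Gclc* (10.1) came next, and the ranges of *Keap1* and *Gsr* and those of *Gsr* and *Gclc* overlapped. *Txnrd1* (8.97) and *Hmox1* (6.92) followed with overlapping ranges, then *Gclm* (4.51), whose highest library at 4.86 was below the lowest library of *Hmox1* at 5.51. *Slc7a11*, at 0.00619, was far below the rest. The order depends on the length that is used, since with the longest transcript in place of all exons *Txnrd1* reached 17.5 and *Nfe2l2* 37.6.

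No correlation between members from mouse to mouse passed the test. Across the 36 pairs of tested members, log2 CPM values were correlated over the 10 libraries after the group means were removed. The median Pearson r was 0.03, and 22 pairs were positive. The count of pairs at an adjusted p below 0.05 was 0, and 0 pairs had an unadjusted p below 0.05 (exact permutation within groups). The pair with the smallest p by Pearson r was *Nfe2l2* and *Gclc* (Pearson r = 0.50, exact permutation p = 0.0910, adjusted p = 0.996, Spearman rho = 0.42, exact permutation p = 0.169, adjusted p = 0.910), and r was 0.47 without the 2 libraries farthest from the median. By Spearman rho the smallest p was that of *Hmox1* and *Srxn1* (rho = 0.62, exact permutation p = 0.0593, adjusted p = 0.910, Pearson r = 0.60, exact permutation p = 0.100, adjusted p = 0.996), with r at 0.78 without 2 libraries. The 3 genes outside the members whose levels followed *Hmox1* most closely over the 10 libraries, by Pearson r after the group means were removed, were *Erp29* (r = 0.95), *Dpm3* (0.95) and *E2f1* (0.94). They are the top of 14614 genes ranked on 10 libraries and are given as a description.

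Further genes of the pathway were taken from 5 lists of 101 genes in all, of which 93 were tested. Together 12 of them (12.9%) were called higher and 3 (3.23%) lower, against 6.48% and 4.99% of all genes. The lists were chosen with earlier results of these data known, so these shares are a description and no test of the lists. The calls were unevenly spread, since 11 of the 12 higher genes belonged to the detoxification and the iron lists. The median log2 fold change of the 93 tested genes was 0.03.

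**Figure D4:**
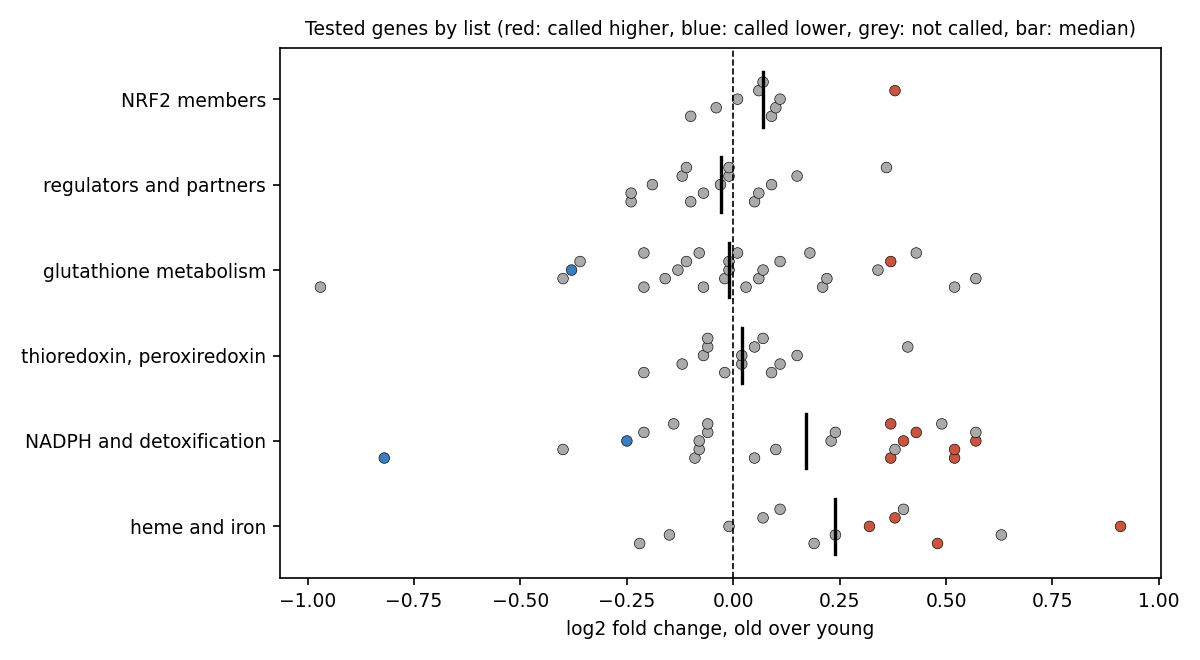
Log2 fold change (old over young, linear axis) of every tested gene in the 10-gene group and in the 5 further lists, with called genes in red (higher) or blue (lower) and the black bar at the median. The medians of the NADPH and detoxification list (0.17) and the heme and iron list (0.24) lie to the right of those of the regulators (-0.03), the glutathione list (-0.01) and the thioredoxin list (0.02).

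Among regulators and partners of NRF2, edgeR called 0 of 15 tested genes. At an unadjusted p below 0.05, 2 were higher and 3 lower, against 14.1% and 12.6% of all tested genes. DESeq2 called 2 lower (*Nfe2l1* and *Gsk3b*, the latter named after its value was seen) and limma-voom called 0. *Nfe2l1*, a relative of NRF2 that drives proteasome genes, was the most abundant of the list with 10065 ± 402 normalized counts in young mice and 9199 ± 129.7 in old aortae (SD, n = 5) and differed by -0.12 on the log2 scale (SE 0.05, edgeR adjusted p = 0.150). *Sqstm1*, which encodes p62, an autophagy receptor that binds KEAP1, had 7532 ± 516 and 7834 ± 471 normalized counts (log2 fold change 0.06, SE 0.06, edgeR adjusted p = 0.573). Of its exonic sequence, 17.3% is overlapped by *Mrnip* on the opposite strand.

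Of 27 tested genes of glutathione metabolism and the glutathione transferases, 1 was called higher and 1 lower (3.7% each). Over all tested genes the shares were 6.48% and 4.99%. *Gss*, glutathione synthetase, which joins glycine to the product of GCLC and GCLM, rose from 398 ± 40.5 to 511 ± 70.7 normalized counts (SD, n = 5, log2 fold change 0.37, SE 0.10, edgeR adjusted p = 0.0309). Single values ran from 349.6 to 435 in young and from 426 to 613 in old aortae, and the groups overlapped. The call was lost without young replicate 3, old replicate 3 or old replicate 5 (edgeR adjusted p = 0.0685, 0.0665 and 0.0753). Antisense genes and *Acss2* overlap 15.4% of its exonic sequence. *Gpx7*, a peroxidase of the endoplasmic reticulum, fell from 611 ± 33.5 to 466 ± 57.9, or -0.38 on the log2 scale (SE 0.08, edgeR adjusted p = 0.0114). Every old aorta lay below every young aorta, as in 4.55% of all tested genes.

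In the thioredoxin and peroxiredoxin system, edgeR called 0 of 14 genes. At an unadjusted p below 0.05, 2 were higher and 1 lower, against 14.1% and 12.6% of all tested genes. DESeq2 called *Txnip* higher and *Txn1* lower, and limma-voom called *Txn1* lower (*Txn1* was named after its value was seen). *Txnip*, an inhibitor of thioredoxin, had 12553 ± 2289 normalized counts in young mice and 16557 ± 2952 in old mice (SD, n = 5, log2 fold change 0.41, SE 0.14, edgeR adjusted p = 0.0845). It passed the edgeR test without young replicate 5 (adjusted p = 0.0326) or without old replicate 1 (0.0303), and *Gm15441* on the opposite strand overlaps 19.4% of its exonic sequence. *Prdx1*, a major peroxiredoxin and a known NRF2 target, had 6225 ± 332 and 5948 ± 637 normalized counts (log2 fold change -0.06, SE 0.08, edgeR adjusted p = 0.679).

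The list of enzymes that supply NADPH or detoxify drugs, quinones and carbonyls held most of the calls. Of its 24 tested genes, 7 (29.2%) were called higher and 2 (8.33%) lower, against 6.48% and 4.99% of all tested genes. All 9 were detoxification enzymes or exporters, and none of the 6 genes that supply NADPH (*G6pdx*, *Pgd*, *Tkt*, *Taldo1*, *Me1* and *Idh1*, named after their values were seen) was called. Their log2 fold changes ran from -0.40 (*Me1*, edgeR adjusted p = 0.114) to 0.10 (*G6pdx*, edgeR adjusted p = 0.383), and DESeq2 called *Me1* lower (adjusted p = 0.0436). *Ephx1*, microsomal epoxide hydrolase, had 3611, 3959.7, 3903, 3749 and 4354 normalized counts in young mice and 5373, 4887, 6344, 5272 and 6039 in old mice. All old values were above all young values, and the means differed by 0.52 on the log2 scale (SE 0.08, edgeR adjusted p = 0.00101). *Aox1*, an aldehyde oxidase, had 961, 971, 890.4, 927 and 723 in young mice and 1258, 1277, 1331, 1213 and 1278 in old mice (log2 fold change 0.52, SE 0.08, edgeR adjusted p = 0.000966). Its 5 old values lay close together, well above the young values.

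*Akr1b8*, an aldo-keto reductase, rose from 284 ± 26.6 to 420.0 ± 77.0 normalized counts (SD, n = 5), or 0.57 on the log2 scale (SE 0.12, edgeR adjusted p = 0.00762). *Nqo2*, the relative of *Nqo1* that uses dihydronicotinamide riboside as its electron donor, rose from 567 ± 49.0 to 727 ± 66.4 (log2 fold change 0.37, SE 0.08, edgeR adjusted p = 0.0104). In both genes the groups did not overlap, and *Serpinb6a* on the opposite strand overlaps 18.9% of the exons of *Nqo2*. The other genes called higher, *Ces2g*, *Cbr1* and *Abcc4*, were named after their values were seen and had log2 fold changes of 0.37, 0.40 and 0.43.

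Lower in old aortae were *Aldh3a1*, an aldehyde dehydrogenase, and *Abcc1*, an exporter of glutathione conjugates. *Aldh3a1* fell from 164 ± 34.8 to 92.1 ± 21.8 normalized counts (SD, n = 5, log2 fold change -0.82, SE 0.18, edgeR adjusted p = 0.0111). *Abcc1* fell from 3256 ± 151 to 2723 ± 192 (log2 fold change -0.25, SE 0.06, edgeR adjusted p = 0.0173). In both, every old aorta lay below every young aorta, as in 4.55% of all tested genes.

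In heme and iron handling, 4 of 13 genes (30.8%) were called higher and 0 lower, against 6.48% and 4.99% of all tested genes. The count lower was also 0 at an unadjusted p below 0.05, in DESeq2 and in limma-voom, against 12.6%, 7.40% and 5.07% of all genes. *Fth1*, the heavy chain of the iron store ferritin, had 62648, 59049, 62128, 58691 and 59914 normalized counts in young mice and 69266, 74894, 78198, 73477 and 79614 in old mice. Its log2 fold change was 0.32 (SE 0.06, edgeR adjusted p = 0.00619), and the groups were clearly apart. *Ftl1*, the light chain, rose from 5301 ± 308 to 7329 ± 896 (SD, n = 5, log2 fold change 0.48, SE 0.08, edgeR adjusted p = 0.00282). Of its 50-base windows, 58.4% occur in transcripts of other genes, mainly the pseudogene *Ftl1-ps1*, so that its counts are uncertain.

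*Tfrc*, the transferrin receptor for iron uptake, rose from 409 ± 43.6 to 527 ± 37.9 (log2 fold change 0.38, SE 0.08, edgeR adjusted p = 0.0115). Its groups only just parted, since the top young aorta had 470.3 and the bottom old aorta 471. *Slc40a1*, the iron exporter ferroportin, rose from 49.1 ± 11 to 91.9 ± 27.5 (SD, n = 5, log2 fold change 0.91, SE 0.23, edgeR adjusted p = 0.0219), and the groups overlapped. Its call was lost without young replicate 2, young replicate 4, old replicate 4 or old replicate 5 (edgeR adjusted p = 0.0511, 0.0557, 0.0567 and 0.0566). The macrophage markers described beside *Hmox1* were higher in the same old aortae, and their part in these genes was not tested.

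**Figure D5:**
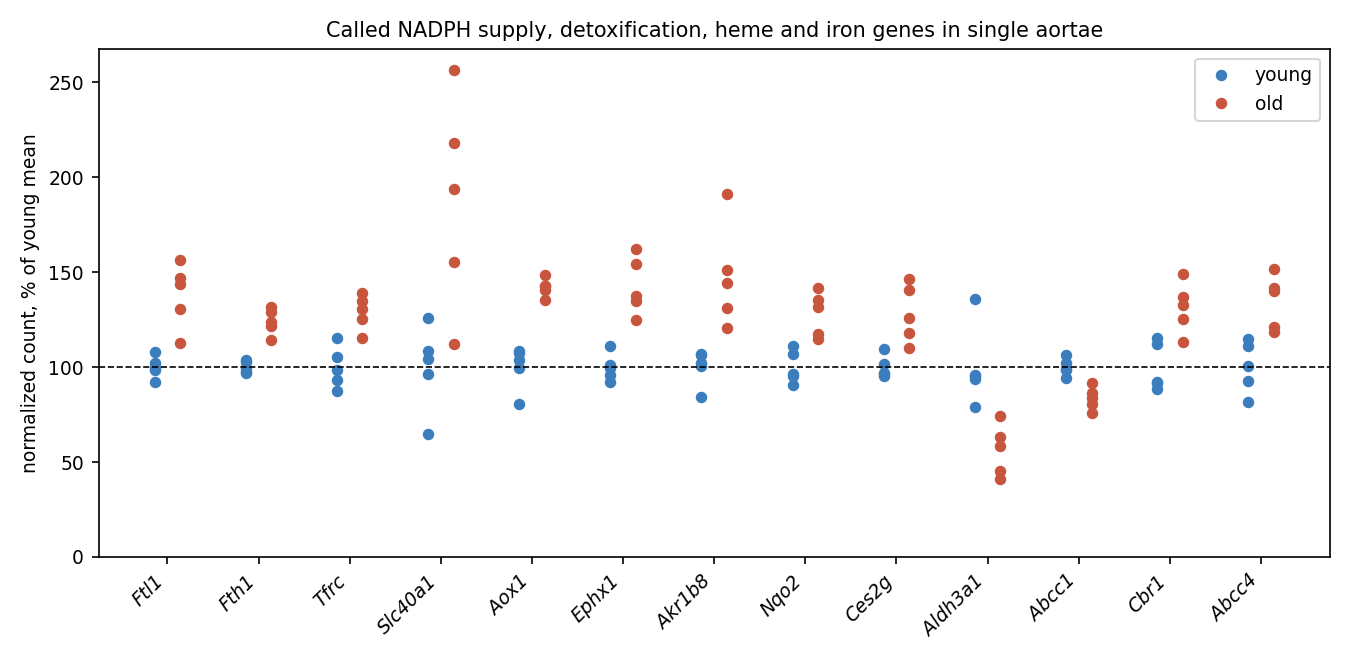
Normalized counts of the called genes of the detoxification and iron lists in single aortae, in percent of the young mean (linear axis from 0, dashed line at 100%). Old points (red) of *Fth1*, *Aox1* and *Ephx1* lie above all young points (blue), and those of *Aldh3a1* and *Abcc1* lie below them.

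Because *Slc7a11* and *Slc3a2* are also known targets of the stress factor ATF4, 16 genes of the ATF4 response were examined. Of these, edgeR called 1 (6.25%) higher and 2 (12.5%) lower, against 6.48% and 4.99% of all tested genes. *Atf4* itself fell from 4359 ± 642 to 3136 ± 373 normalized counts (SD, n = 5, log2 fold change -0.47, SE 0.11, edgeR adjusted p = 0.0129). *Mthfd2*, a mitochondrial folate enzyme, fell by 0.81 on the log2 scale (SE 0.22, edgeR adjusted p = 0.0386), a call lost in 6 of the 10 fits that left out 1 mouse and without the filter on low counts (adjusted p = 0.119). *Nupr1*, a stress-induced chromatin protein, rose from 6870.2 ± 753 to 9579 ± 1666 (log2 fold change 0.49, SE 0.11, edgeR adjusted p = 0.0142). The median of the 16 was -0.12.

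Of 10 immediate early genes, which respond within minutes to stress and tissue handling, edgeR called 1 (10.0%) higher and 2 (20.0%) lower. Over all tested genes the shares were 6.48% and 4.99%. *Junb* rose (log2 fold change 0.77, SE 0.16, edgeR adjusted p = 0.00957), and *Atf3* (-2.28, SE 0.39, edgeR adjusted p = 0.00596) and *Fosb* (-1.16, SE 0.30, edgeR adjusted p = 0.0337) fell. The call of *Fosb* was lost in 5 of the 10 fits that left out 1 mouse and in the edgeR fit without the filter on low counts (adjusted p = 0.0862). The summed level of the 10 genes was 0.774 times the young level in old aortae, and the groups overlapped.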

How the data were processed

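Total RNA of 10 aortae was sequenced from stranded poly(A) libraries. The authors trimmed reads with fastp 0.20.0, aligned them with STAR 2.7.0f to GRCm38 and counted them per gene with featureCounts of Subread 1.6.4, and deposited raw counts without normalization. The strand setting and the treatment of reads with several alignments are not given in the sources used here. Symbols were matched to GENCODE M21, and the authors used M22.

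The 28011 genes with a count were filtered with filterByExpr of edgeR 4.0.16, which left 14614. They were tested with the robust quasi-likelihood F test (TMM scaling, no covariate, R 4.3.3) and Benjamini-Hochberg adjustment over all genes. DESeq2 1.42.0, whose size factors scale the normalized counts, limma-voom (limma 3.58.1), other scalings and filters and the omission of each mouse were alternatives. The tools were tested on simulated data. Between libraries of 1 group, the chi-square of the counts was 8.06 to 58.8 per degree of freedom (20 pairs), so that no library was a copy. Nothing in the labels says whether mice shared a cage or batch.

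The members and lists were chosen with earlier results of these data known. Named were all members, and in each list the called genes with the 4 smallest p per direction, or the 2 most abundant where fewer than 2 were called. *Cd163*, *Chac1*, *Sesn2* and *Slc3a2* are each in a pair of lists. No gene is named as like *Slc7a11*, which was not tested. Shared sequence was measured in 50-base windows of transcripts on either strand.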

Additional observations from a re-analysis of the deposited data

Results flagged for a closer look

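In groups of 5, a library was marked when its gap to the nearest other library exceeded 0.71 of the whole range of the group (Dixon's 95% limit). Of 88 groups examined, 8 were marked, and chance marks about 1 in 20. Among the members, *Hmox1* was marked in old replicate 3 (372 normalized counts, others 262 to 288) and *Gsr* in old replicate 5 (626, others 692 to 704). The summed macrophage markers were marked in old replicate 3 as well (22429, others 11675 to 14261). *Akr1b8* was low in young replicate 4 (239, others 286 to 304), and *Junb* was high in old replicate 2 (2668, others 1785 to 1876). Schwann cell markers were high in young replicate 1 (790.2, others 306 to 389). Striated muscle markers were high in young replicate 2 (1156, others 163 to 293) and low in old replicate 4 (169.7, others 201 to 208).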

How the results depend on the processing

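The count of members called lower was 0 and that called higher was 1 under DESeq2, limma-voom, 3 other scalings and 2 other filters (adjusted p of *Hmox1* 0.0106 to 0.0330). With the replicate number as a block it was 0 (log2 fold change 0.37, adjusted p = 0.0814), and at a threshold of 0.01 it was 0. Among the genes named from the lists, the block also lost the edgeR calls of *Gss* (adjusted p = 0.0662), *Slc40a1* (0.0628) and *Abcc1* (0.0672). Lost there too were the calls of *Mthfd2* (0.0874), *Atf3* (0.0703) and *Fosb* (0.0874). Leaving out 1 mouse gave 0 to 1 members called higher and a log2 fold change of 0.28 to 0.42 for *Hmox1*, with the call kept in 5 of 10 fits. *Gsr* ranged from -0.03 (sign changed, without young replicate 2) to 0.04. Of the 5 further lists together, 9 to 17 genes were higher and 3 to 5 lower with 1 mouse left out. In these lists DESeq2 called 8 lower in all. It called 0 regulators, 2 glutathione genes, 1 thioredoxin gene, 8 NADPH and detoxification genes and 5 heme and iron genes higher. Over all genes, DESeq2 called 8.37% higher and 7.40% lower. A threshold of 0.01 left 5 genes of the lists higher and 0 lower. Over all genes, the same threshold left 395 higher and 263 lower, the replicate block left 467 lower, and 658 to 1228 were higher and 474 to 1139 lower with 1 mouse left out. Young replicate 4 gave the lowest and young replicate 1 the highest of these counts when omitted, and the latter also gave the 17 and the 5. The cause of these shifts was not tested. The deviations of same-numbered mice from their group means had correlations of -0.300 to 0.132. The best old match of young replicates 3 and 5 carried the same number, and that of the others did not. So few correlations cannot decide whether the numbers pair the samples. The difference in mean total count, -203621, ranged from -522904 to 294759 with 1 mouse left out. Scaling moved the median of all genes by at most 0.03. At these depths *Slc7a11* among the members and 8 genes of the further lists were too low to test.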
